A study of Homo sapiens with 24 samples.

Results

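CHEK2, TIPIN and RAD17 encode proteins that act at 3 different points of the DNA damage checkpoint, and their mRNAs were followed through 4 drug treatments and 2 RNA fractions of OVCAR-3 cells. They were chosen by their gene symbols on the array platform, which gave 4 of the 53617 probesets and 3 of the 14884 genes with a symbol. The choice was made with earlier results of these same arrays known, and the contrast that led to it was not recorded. Their levels and differences are therefore given as a description, with no p-value, and the number of them past the threshold is only set beside the share of all genes past it.

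The checkpoint stops the cell cycle while damaged DNA is repaired. CHEK2 is a kinase switched on by ATM at double-strand breaks, and it phosphorylates targets such as p53 and the CDC25 phosphatases. TIPIN, bound to its partner TIMELESS, travels with the replication fork, steadies it when it stalls and helps pass the ATR signal to the kinase CHEK1 through Claspin. RAD17 joins the small subunits of replication factor C and loads the ring-shaped 9-1-1 clamp (RAD9A, RAD1 and HUS1) onto damaged DNA, where the clamp brings TOPBP1 to ATR. Carboplatin forms crosslinks in DNA that stall forks, and INK128 blocks both mTOR complexes, mTORC1 and mTORC2, of which mTORC1 drives cap-dependent translation.

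OVCAR-3 is an established ovarian carcinoma line of the high-grade serous type that withstands platinum drugs. Cells received the combination of 0.25 µM INK128 and 1 µM carboplatin, 1 µM carboplatin alone, 0.25 µM INK128 alone, or DMSO as vehicle. Combination plates were exposed to INK128 for 24 h, with carboplatin present over the last 5 h, and the plates with carboplatin alone got it for those same 5 h. Each condition used 3 plates of 150 mm. Polysome RNA was pooled from gradient fractions 7 to 14, which hold mRNA on many ribosomes, and total RNA came from an aliquot of the same lysates. All values stem from 1 cell line at a single dose of each drug and a single end point. The study's methods speak of 2 complete, independently performed sets of replicates, while the polysome groups compared here hold 3 or 4 arrays. Neither the methods nor the labels tell which arrays came from which set. Arrays of a group may therefore not all be independent, and part of the spread between them may be technical. Every SD, SE and fit below counts each array as a replicate.

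There were 24 Affymetrix Human Gene 2.0 ST arrays, and the labels of 4 of them were in doubt. Their values were those of columns that the study's supplementary datasets assign to another condition. Another 12 arrays sat under their own labels, and 8 were not in those datasets. Those 8 included every INK128 array, so no INK128 label could be checked in this way. The 4 were the arrays labelled carboplatin polysome replicate 1, carboplatin total replicate 1 and combination total replicates 1 and 2. They were left out of the comparisons wherever a group remained without them, which left 3 combination, 4 carboplatin, 3 INK128 and 3 DMSO arrays of polysome RNA, and 3 carboplatin, 2 INK128 and 2 DMSO arrays of total RNA. No combination array of total RNA was then left. Comparisons of combination total RNA and of combination translation efficiency used all 24 arrays under the datasets' conditions instead, are marked as reassigned, and rest wholly on that reassignment.

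Values were log2 signals, on which a difference of 1 is a doubling. Array medians lay between 4.97 and 5.13 and no value was missing. Markers were looked up by gene symbol, and many probesets had no symbol in the annotation. Of 10 epithelial markers of the line, 7 had a named probeset. All 7 lay above the expression filter (mean log2 of at least 6.54), among them PAX8 at 12.19 and EPCAM at 10.60. Of 5 leukocyte markers, 2 had a named probeset, CD68 at 9.73 and CD14 at 4.40. Of 6 fibroblast and endothelial markers only PECAM1 had one, at 5.06. The levels of the other markers are not known from these values. CD68 is also made by many cell types outside the blood.

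The 5′ ends of the transcripts are shown because mRNAs that mTORC1 controls most tightly, those of ribosomal proteins among them, usually begin with a terminal oligopyrimidine (TOP) tract. Each stretch below, from RefSeq on GRCh38.p14, has the 20 bases before an annotated start in lower case and the first 10 transcribed bases in capitals. All 3 genes were matched, with 1 start for CHEK2, 2 for TIPIN and 3 for RAD17, of which the first RAD17 start is printed.
CHEK2, chr22:28741811-28741840, minus strand: gtatctgcaggtttagcgccACTCTGCTGG
TIPIN, first start, chr15:66386708-66386737, minus strand: cggggtccgtcgcggacgccGTGGCGCCCT
TIPIN, second start, chr15:66356676-66356705, minus strand: gtatcgcgagaagcgcgcttAGTCTGCACG
RAD17, first start, chr5:69369798-69369827, plus strand: tggaaggtccccgggaggccGTACCTCCGA
None of these annotated starts had a TOP-like beginning, taken as a C at the first base followed by at least 4 bases that are C or T. The CHEK2 and second TIPIN starts opened with A, and the first TIPIN and RAD17 starts with G. Of all 35116 annotated starts, 4.07% were TOP-like, against 56.5% of the 85 starts of ribosomal protein genes. This describes annotated starts only, since the starts used in OVCAR-3 cells were not measured.

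E2F factors drive many replication and checkpoint genes at the G1/S transition, so the 300 bases around each start were also searched for the words TTTGGCGC, TTTCCCGC, TTTCGCGC and TTTGCCGC on both strands. Only the second TIPIN start held one, within the stretch cgcacggaTTTGGCGCcaaacgct, where the capitals mark the word. It began 66 bases before the start and overlapped a copy on the other strand, so the pair is 1 palindromic element. Such a word occurred in 3.31% of all starts and in 4.71% of ribosomal protein starts.

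CHEK2, the effector kinase, was read by probeset 16933502. In polysome RNA its log2 signal was 6.59, 6.77 and 6.55 on the combination arrays (6.64 ± 0.12, SD, n = 3) and 6.93, 7.02, 7.16 and 7.20 on the carboplatin arrays (7.08 ± 0.12, SD, n = 4). It was 6.69, 6.90 and 6.90 on the INK128 arrays (6.83 ± 0.12, SD, n = 3) and 7.28, 7.44 and 7.32 on the DMSO arrays (7.35 ± 0.09, SD, n = 3). The order of the means was thus combination, INK128, carboplatin and DMSO, with DMSO highest. Every array of the other 3 treatments lay below every DMSO array, by a gap of 0.50 for the combination, 0.38 for INK128 and 0.08 for carboplatin. How many of all genes separate in this way was not counted, for this gene or the others below, so nothing is read from a separation. Combination and INK128 arrays overlapped, while the highest INK128 array, 6.90, and the lowest carboplatin array, 6.93, almost touched. Because RNA was hybridised in equal amounts from whole cultures, less CHEK2 mRNA per cell and fewer cells that carry it cannot be told apart, here or in any value that follows.

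In total RNA the CHEK2 order was not as clear. The signal was 6.55, 7.13 and 6.95 on the carboplatin arrays, 6.74 and 6.57 on the INK128 arrays, and 7.14 and 6.69 on the DMSO arrays, so that all 3 groups overlapped. The 2 reassigned combination arrays read 6.57 and 6.83, inside the range of the carboplatin arrays. The SD of the DMSO arrays alone was 0.32 (n = 2), larger than any CHEK2 difference from DMSO in total RNA. A second CHEK2 probeset, 17122246, read between 3.16 and 4.22 on all 24 arrays, below the filter, and was not used for the level. CHEK2 has partial pseudogene copies elsewhere in the genome, and a signal from these cannot be separated on an array.

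TIPIN, the fork protector, was read by probeset 16810933 and had the widest separation of the 3 genes. In polysome RNA its log2 signal was 6.86, 6.86 and 6.87 on the combination arrays (6.86 ± 0.01, SD, n = 3) and 7.06, 7.03 and 6.99 on the INK128 arrays (7.02 ± 0.03, SD, n = 3). It was 9.08, 8.28, 7.96 and 7.87 on the carboplatin arrays (8.29 ± 0.55, SD, n = 4) and 7.79, 7.92 and 8.06 on the DMSO arrays (7.92 ± 0.13, SD, n = 3). All 6 arrays with INK128, given alone or in the combination, therefore lay below all 7 arrays without it. The combination arrays sat under the INK128 arrays by a gap of 0.12 and under the DMSO arrays by 0.92. Carboplatin and DMSO arrays overlapped, and carboplatin replicate 2, at 9.08, stood apart from the next carboplatin array, at 8.28.

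The TIPIN mRNA in total RNA was lower with INK128 as well. The signal was 7.06 and 7.91 on the INK128 arrays and 8.60 and 8.84 on the DMSO arrays, with a gap of 0.70 between the groups. The INK128 arrays were themselves far apart (7.48 ± 0.60, SD, n = 2). Carboplatin arrays read 8.75, 9.29 and 8.61, overlapping DMSO. The reassigned combination arrays, at 8.30 and 7.72, fell below the DMSO arrays by 0.30 and reached into the INK128 range.

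RAD17, the clamp loader, was read by probeset 16985658. In polysome RNA its log2 signal was 8.41, 7.92 and 7.24 on the combination arrays (7.86 ± 0.59, SD, n = 3) and 8.59, 8.34, 8.61 and 8.14 on the carboplatin arrays (8.42 ± 0.22, SD, n = 4). It was 8.50, 8.27 and 8.17 on the INK128 arrays (8.31 ± 0.17, SD, n = 3) and 8.85, 8.08 and 8.46 on the DMSO arrays (8.46 ± 0.38, SD, n = 3). The combination mean was the lowest and its arrays the most spread, with replicate 1 inside the range of every other treatment and replicate 3 below all other polysome arrays. INK128, carboplatin and DMSO arrays overlapped one another, so no order among those 3 held beyond their spread.

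In total RNA, RAD17 read 8.77, 9.36 and 9.0 on the carboplatin arrays, 8.77 and 9.11 on the INK128 arrays, and 9.07 and 9.08 on the DMSO arrays. These 3 groups overlapped. The reassigned combination arrays read 9.28 and 9.34, above the DMSO arrays by a gap of 0.20 and above the INK128 arrays by 0.16. RAD17 was thus the only one of the 3 genes whose combination arrays, under reassignment, were above DMSO in total RNA and on average below DMSO in polysome RNA.

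**Figure D1:**
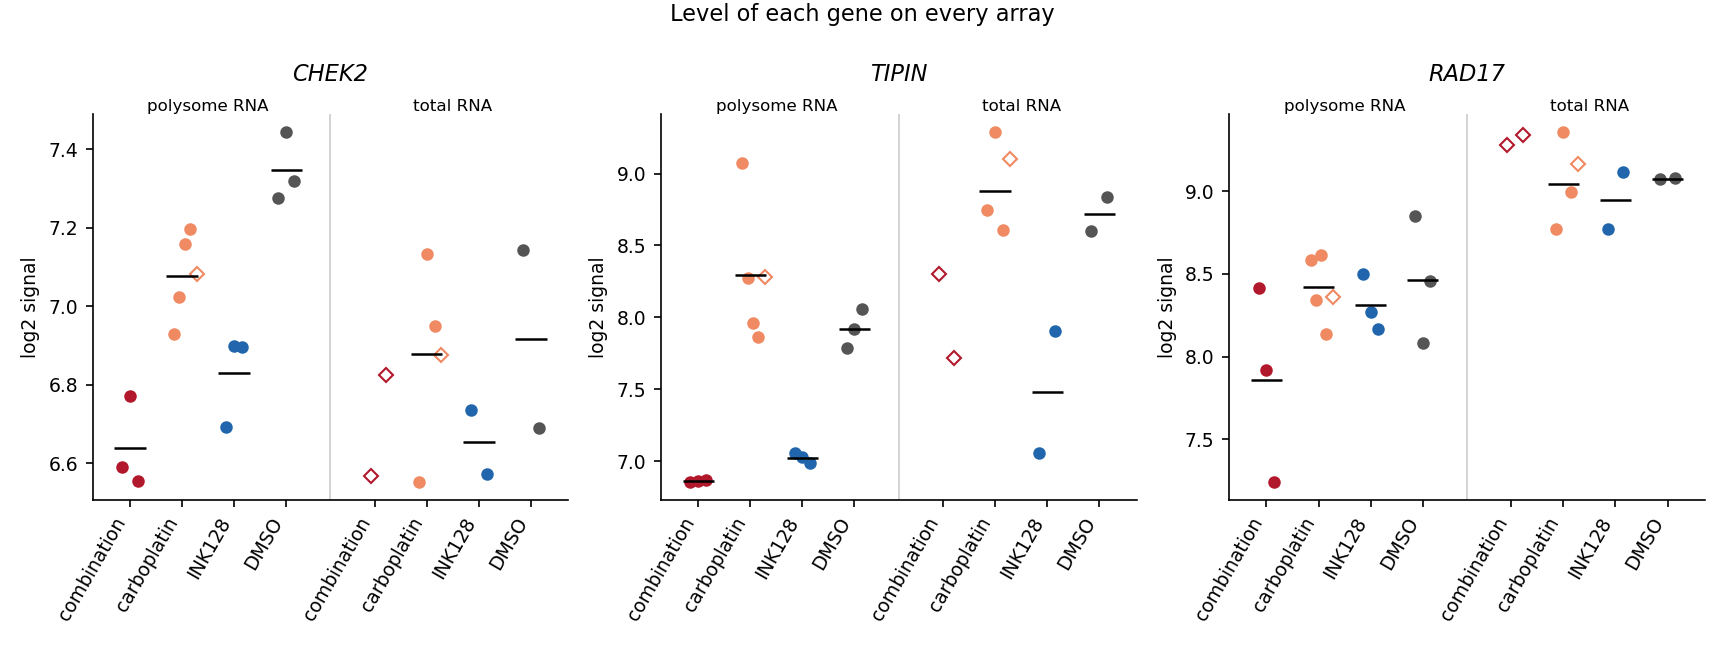
Log2 signal (y axis) of CHEK2, TIPIN and RAD17 by treatment, polysome RNA at the left of each panel and total RNA at the right. Each filled point is 1 array, open diamonds are the 4 arrays in doubt drawn under their reassigned condition, and bars are means of the filled points. TIPIN in polysome RNA falls into a low pair of groups with INK128 and a high pair without it, CHEK2 is highest in DMSO, and RAD17 overlaps between treatments.

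The differences of group means in polysome RNA follow the study's measure of polysome association, which does not correct for the total amount of an mRNA. A lower value can therefore come with less of the mRNA in the whole lysate. Total RNA and translation efficiency are given further below. In polysome RNA of the combination against DMSO, TIPIN differed by -1.06 (SE 0.23), CHEK2 by -0.71 (SE 0.12) and RAD17 by -0.60 (SE 0.26) on the log2 scale. For 2 of the 3 genes, CHEK2 and TIPIN, the difference lay past an adjusted p of 0.05 in limma over all 7442 genes tested, a threshold that 13.1% of those genes passed. Nothing is read from that count, since the genes were chosen with such values known. That count was 3 of 3 without combination replicate 1, where RAD17 differed by -0.88, and 1 of 3 without DMSO replicate 3, where TIPIN differed by -0.99. Measured relative to the median of all genes tested, -0.08 here, all 3 remained lower, and with each array centred on its median they were -0.93, -0.58 and -0.48 in the same order.

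With INK128 alone, TIPIN and CHEK2 were lower than in DMSO by most of the difference seen with the combination. Against DMSO in polysome RNA, TIPIN differed by -0.90 (SE 0.23), CHEK2 by -0.52 (SE 0.12) and RAD17 by -0.15 (SE 0.26). Again 2 of the 3 genes, CHEK2 and TIPIN, were past the threshold, against 8.18% of all genes. Without DMSO replicate 3, or without any single INK128 array, the count was 0 of 3, with differences of -0.45 to -0.55 for CHEK2 and -0.83 to -0.91 for TIPIN. With the 4 arrays kept under their labels CHEK2 differed by -0.52, and with both of its probesets averaged by -0.31, and it was then not past the threshold.

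With carboplatin alone the 3 genes did not differ from DMSO in 1 direction. Against DMSO in polysome RNA, TIPIN differed by 0.37 (SE 0.22), CHEK2 by -0.27 (SE 0.11) and RAD17 by -0.04 (SE 0.24). The TIPIN value was 0.76 without the 2 carboplatin arrays whose labels carry an additional code, and those 2 were the lowest of the group. Here 0 of the 3 genes passed, as did 0% of all genes in limma, with 175 of 7442 at an unadjusted p under 0.05. Without those 2 arrays 234 genes passed, 179 of them higher, and 0 of the 3.

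Adding carboplatin to INK128 gave a further difference of -0.45 (SE 0.26) for RAD17, -0.19 (SE 0.12) for CHEK2 and -0.16 (SE 0.23) for TIPIN in polysome RNA. Only the TIPIN arrays of the 2 groups did not overlap, and 29.6% of all genes tested had a lower difference than TIPIN. The share of all genes whose arrays separated was not counted. None of the 3 passed, 0% of all genes did in limma, and the unadjusted p was under 0.05 for 207 genes. The effect of carboplatin with INK128 minus its effect without was -0.54 for TIPIN, -0.41 for RAD17 and 0.08 for CHEK2. In the limma test of that interaction 0 of 7442 genes passed, with 1.37% of them at an unadjusted p under 0.05. No joint effect on a single gene was thus called. How large an effect this number of arrays could show was not tested.

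Adding INK128 to carboplatin was the comparison with the largest polysome difference for TIPIN, -1.43 (SE 0.22), with a gap of 1.00 between the groups. RAD17 differed by -0.56 (SE 0.24) and CHEK2 by -0.44 (SE 0.11), and for CHEK2 the arrays were separated by 0.16. CHEK2 and TIPIN, 2 of the 3 genes, passed, against 17.8% of all genes. CHEK2 was not past the threshold with arrays kept under their labels (-0.34), with centring (-0.30), without the coded carboplatin arrays (-0.34), without combination replicate 3 (-0.40) and with both probesets averaged (-0.24). Without combination replicate 1 RAD17 differed by -0.84 and was past it. The comparisons of polysome RNA share their DMSO, INK128 or combination arrays, so their values are not independent of each other.

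**Figure D2:**
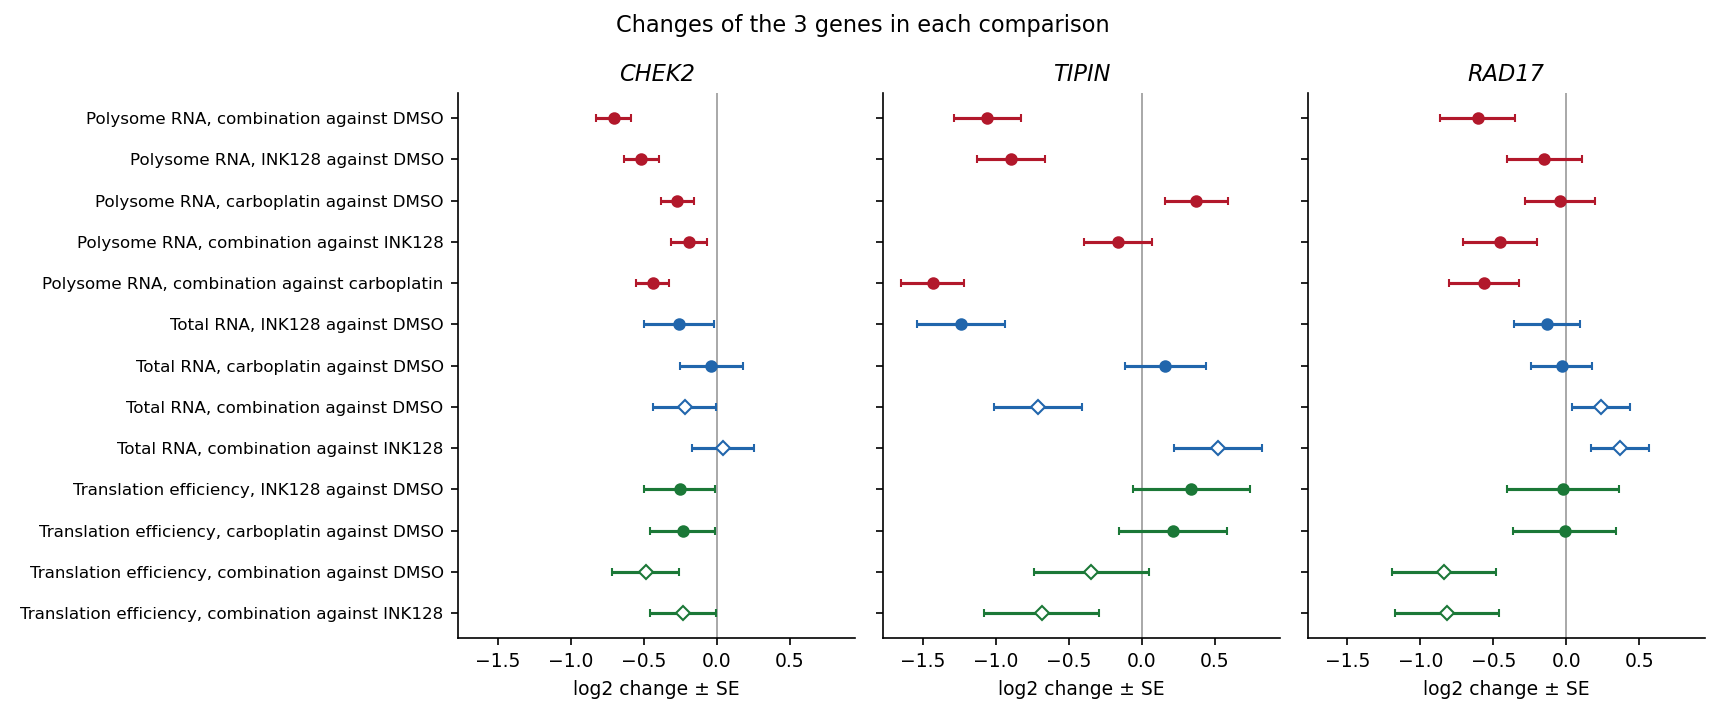
Difference in log2 signal (x axis) of CHEK2, TIPIN and RAD17 in each comparison (rows), with bars of 1 SE from limma. Filled points use the arrays kept under their labels, and open diamonds use the reassigned arrays. In polysome RNA the combination lies left of 0 for all 3 genes, from -1.06 for TIPIN to -0.60 for RAD17, and carboplatin alone lies near 0 for RAD17 only.

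Total RNA gave the level of each mRNA relative to the other RNA of the whole lysate, polysomes included. Arrays received equal amounts of RNA and were normalized, so a change shared by all mRNAs would not show in either fraction. With INK128 against DMSO, TIPIN differed by -1.24 (SE 0.30), CHEK2 by -0.26 (SE 0.24) and RAD17 by -0.13 (SE 0.23). The TIPIN value was larger in size than its polysome difference, and it ran between -1.66 and -0.81 when either INK128 array was left out. None of the 3 genes passed, and 0.161% of all genes did. With carboplatin against DMSO the differences were 0.16 for TIPIN, -0.04 for CHEK2 and -0.03 for RAD17, the last 2 changing sign when arrays were centred or normalized within the fraction, and 0 of 3 genes and 0% of all genes passed in limma, with 198 at an unadjusted p under 0.05.

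With the reassigned arrays, combination total RNA against DMSO differed by -0.71 (SE 0.30) for TIPIN, -0.22 (SE 0.21) for CHEK2 and 0.24 (SE 0.20) for RAD17. Of all genes 0.417% passed and of the 3 genes 0. Under the labels as deposited the same differences were -0.03 for TIPIN, 0.06 for CHEK2 and -0.31 for RAD17, so each of them depends on which arrays are taken as combination total RNA. Reassigned combination against INK128 gave 0.52 for TIPIN, 0.37 for RAD17 and 0.04 for CHEK2, the last turning to -0.01 with centring. Here 0 of 3 genes and 0% of all genes passed in limma, with 539 at an unadjusted p under 0.05.

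Translation efficiency is the log2 polysome signal minus the log2 total signal. It was fitted on group means, without pairing polysome and total arrays of a lysate, since not all arrays have a known partner. With INK128 against DMSO it differed by 0.34 (SE 0.40) for TIPIN, -0.26 (SE 0.24) for CHEK2 and -0.02 (SE 0.39) for RAD17. The lower TIPIN signal with INK128 was thus present in both fractions, and without INK128 total replicate 1 its efficiency difference was -0.08. With carboplatin against DMSO the differences were 0.21 for TIPIN, -0.23 for CHEK2 and -0.01 for RAD17. In each of these 2 comparisons 0 of 3 genes and 0% of all genes passed in limma, with 94 genes for INK128 and 59 for carboplatin at an unadjusted p under 0.05.

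For the combination, with reassigned arrays, RAD17 had the largest difference in translation efficiency of the 3 genes. Against DMSO it was -0.84 (SE 0.36) for RAD17, -0.49 (SE 0.23) for CHEK2 and -0.34 (SE 0.39) for TIPIN. Against INK128 it was -0.82 (SE 0.36) for RAD17, -0.68 (SE 0.39) for TIPIN and -0.23 (SE 0.23) for CHEK2. Neither comparison called any of the 3 genes or any other (0% of all genes in limma each, with 493 and 792 genes at an unadjusted p under 0.05). The RAD17 value against DMSO was -0.53 without combination polysome replicate 3, -1.12 without replicate 1, and -0.29 with all arrays under their labels.

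The datasets' columns also pair polysome and total RNA of single lysates, with 2 combination, 4 carboplatin and 2 DMSO pairs among these arrays, the combination pairs and 1 carboplatin pair resting on the arrays in doubt. RAD17 polysome minus total signal was -0.86 and -2.10 in the combination pairs, -0.18, -1.02, -0.81 and -0.86 in the carboplatin pairs, and -0.22 and -0.62 in the DMSO pairs. Both combination pairs were below both DMSO pairs, while 1 of them lay among the carboplatin pairs and the other below all. For TIPIN the values were -1.44 and -0.84 in the combination, 0.33, -1.01, -0.82 and -0.74 with carboplatin, and -0.82 and -0.78 in DMSO. Of the TIPIN combination pairs 1 was next to the DMSO pairs and the other below them, and the carboplatin pair at 0.33 held the high replicate 2 array. CHEK2 had 0.02 and -0.27 in the combination, 0.38, -0.11, 0.21 and 0.25 with carboplatin, and 0.13 and 0.63 in DMSO, so its combination pairs were below its DMSO pairs and overlapped the carboplatin pairs. Taken over these pairs alone, the efficiency with the combination against DMSO differed by -1.06 for RAD17, -0.51 for CHEK2 and -0.35 for TIPIN, and with carboplatin against DMSO by -0.30, -0.20 and 0.24 in the same order.

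**Figure D3:**
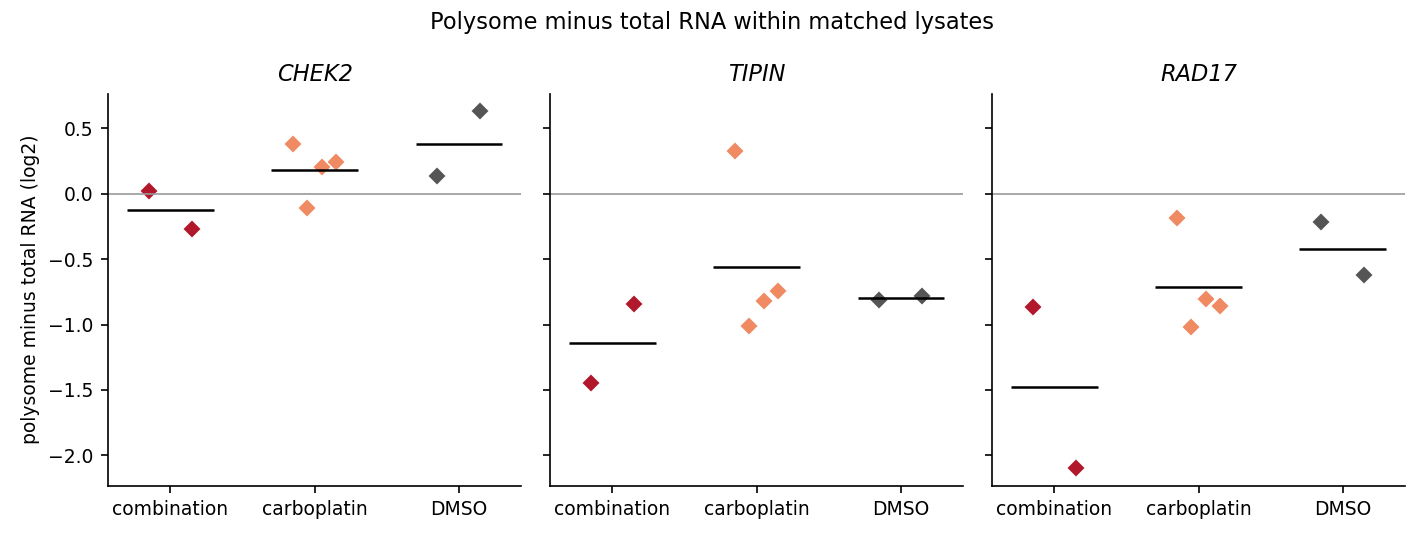
Polysome minus total log2 signal (y axis) of CHEK2, TIPIN and RAD17 within lysates paired by the study's datasets, for combination, carboplatin and DMSO (x axis). Each diamond is 1 pair and each bar a mean. The RAD17 combination pairs, at -0.86 and -2.10, lie below both DMSO pairs, while TIPIN has 1 combination pair at -1.44, below all others, and 1 carboplatin pair at 0.33, above all others.

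Among themselves the 3 genes followed different courses over the 13 polysome arrays. Pearson r was 0.61 between CHEK2 and TIPIN, 0.47 between TIPIN and RAD17 and 0.41 between CHEK2 and RAD17, over arrays that share treatments and normalization. The genes most like CHEK2 among those tested were NRM (r = 0.95), PSAT1 (0.94) and SFXN2 (0.94). Those most like TIPIN were ATG3 (0.98), GTPBP8 (0.97) and NUDT9 (0.97), and those most like RAD17 were ZNF45 (0.97), TSPAN12 (0.97) and PANX1 (0.96). No gene stood in more than 1 of these 3 sets, but with r of at most 0.61 between the 3 genes none could.

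The partners of the 3 genes were taken from 6 lists of checkpoint genes with 58 further members. Of these, 33 had a probeset under their current or older symbol, and 30 were tested. These lists too were drawn up with earlier results known, so their counts are a description beside those of all genes and no independent evidence. The other 25 were not analysed here, among them ATM and all 4 RPA subunits of the list. In polysome RNA of the combination against DMSO, 9 of the 30 fell and 0 rose (limma with Benjamini-Hochberg adjustment over all genes), beside 637 that fell and 339 that rose among all 7442. The median of the 30 was -0.33, against -0.08 for all genes tested. Of the 30, 25 were below 0, or 23 with centred arrays, and how many of all genes were below 0 was not counted. The number of list genes called was 3 without DMSO replicate 3 and 5 without combination replicate 2. With centred arrays 5 of the 30 passed, all lower, while of all genes 623 of 1035 calls were higher. With only the 2 groups in the fit 1 of the 30 and 44 of all genes passed.

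Around TIPIN, 4 of 6 fork protection genes fell with the combination, beside 8.56% of all genes tested. TIMELESS, its binding partner, read 8.83, 8.61 and 8.10 on the combination arrays and 9.05, 9.57 and 9.46 on the DMSO arrays, with no overlap, and differed by -0.85 (SE 0.17, adjusted p = 0.0092, limma). CLSPN, which encodes Claspin, differed by -0.74, the replication factor MCM10 by -0.63 and the fork protein DONSON by -0.57 (adjusted p = 0.0264, 0.0416 and 0.0165 in limma). TIPIN, at -1.06, was lower than any of them.

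Around RAD17, 2 of 5 clamp and clamp loader genes fell, beside the same 8.56% of all genes. RAD1, part of the clamp that RAD17 loads, read 9.52, 9.33 and 9.48 on the combination arrays and 10.12, 9.72 and 10.02 on the DMSO arrays, and differed by -0.51 (adjusted p = 0.0239, limma). The other clamp genes on the list, RAD9A at 0.17 and HUS1 at 0.04, did not pass. DSCC1, of an alternative clamp loader that works with PCNA, differed by -0.97 (adjusted p = 0.0037, limma).

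Around CHEK2, 0 of 4 other checkpoint kinase genes passed with the combination, beside 13.1% of all genes. Their values ran from -0.26 for CHEK1 to -0.48 for ATRIP, the partner of ATR. Of these 4, 2 had an unadjusted p under 0.05 in limma, as did 2423 of all 7442 genes tested. Of the 8 genes at the output of the checkpoint 3 fell, beside 8.56% of all genes. CDC25A, a phosphatase that CHEK1 and CHEK2 mark for destruction, read 7.70, 7.72 and 7.54 on the combination arrays and 8.90, 8.78 and 8.84 on the DMSO arrays, a difference of -1.19 (SE 0.11, adjusted p = 0.0001, limma). E2F1, the G1/S transcription factor that CHEK2 can phosphorylate, differed by -0.79, and the mitotic kinase PLK1 by -0.47 (adjusted p = 0.0207 and 0.0394, limma). Of 7 break sensors and adaptors 0 passed, with UIMC1 lowest at -0.48 and RAD50 highest at 0.33. An unadjusted p under 0.05 in limma was reached by 2 of the 7, beside the same 2423 of all 7442 genes.

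With INK128 alone against DMSO 6 of the 30 genes fell, CDC25A by 1.18, E2F1 by 0.81, DSCC1 by 0.71, CLSPN by 0.70, DONSON by 0.60 and RAD1 by 0.54 on the log2 scale (adjusted p from 0.0001 to 0.0421, limma), and 0 rose. Among all 7442 genes 267 fell (3.59%) and 342 rose. All 6 were also among the 9 of the combination. Without DMSO replicate 3, or any single INK128 array, 1 of the 6 calls was left. The median of the 30 was -0.23, against -0.02 for all genes.

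With the combination against carboplatin 12 of the 30 fell and 0 rose, beside 903 of all 7442 that fell (12.1%) and 420 that rose, with a median of -0.35 against -0.09 for all genes. To the 9 genes above this added UIMC1 at -0.70, ATRIP at -0.68 and BARD1, the partner of BRCA1, at -0.58 (adjusted p = 0.0100, 0.0247 and 0.0102, limma). With centred arrays 7 passed, all lower. In the other 10 comparisons 0 of the 30 passed in limma. At an unadjusted p under 0.05 there were 12 with INK128 (of 1166 over all genes), 9 with the reassigned combination (of 1138) and 1 with carboplatin (of 198) in total RNA against DMSO, 5 (of 539) for the reassigned combination against INK128, 0 in the remaining polysome comparisons, and 3 (of 493) and 4 (of 792) in translation efficiency of the combination against DMSO and INK128, with 0 for the other drugs.

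**Figure D4:**
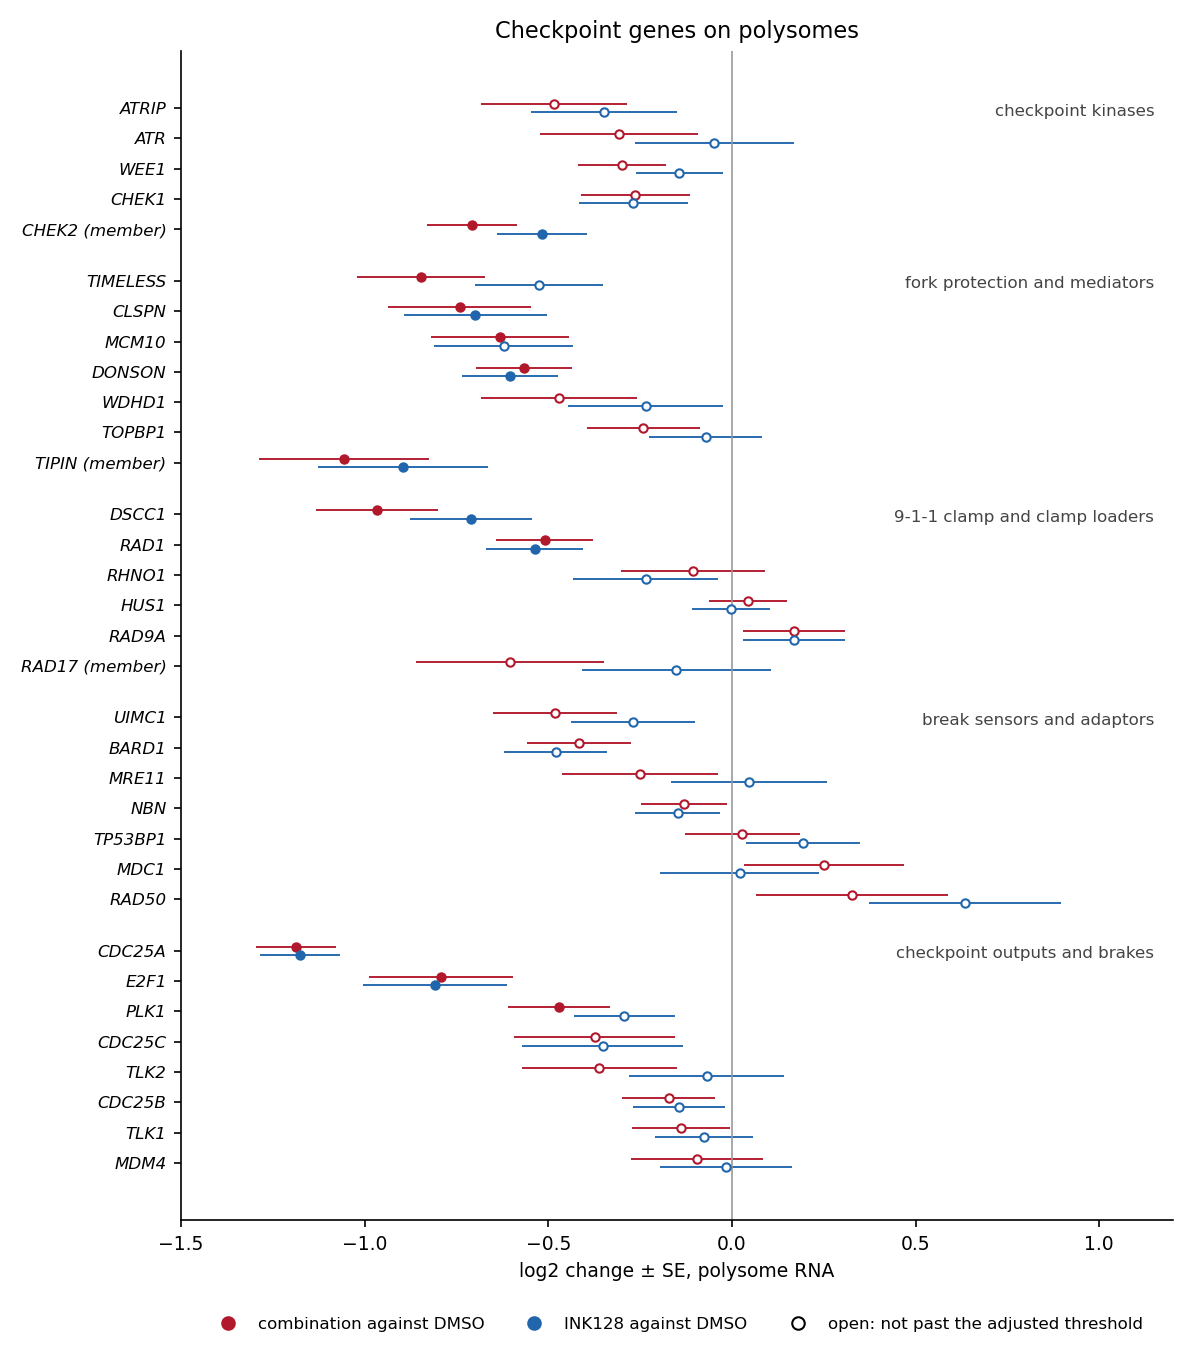
Difference in polysome log2 signal (x axis) with the combination (red) and with INK128 (blue) against DMSO for the 30 other checkpoint genes tested and the 3 chosen genes (marked as member), grouped by list, with bars of 1 SE. Filled points passed an adjusted p of 0.05 in limma. CDC25A at -1.19 and TIPIN at -1.06 lie farthest to the left, and RAD50, RAD9A, MDC1, HUS1 and TP53BP1 lie right of 0 with the combination.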

How the data were processed

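The deposited values are log2 signals, with a column for each array, which the authors made with RMA and quantile normalization in Affymetrix Expression Console 1.4.1. No further normalization was applied, and precision is limited by how many arrays a group has. Probesets were named from the platform annotation (16098 with 1 symbol, 37519 with none), the probeset with the highest mean was kept for each gene, and 7442 of 14884 genes passed a filter at the median of their means (6.54). The fits used limma 3.58.1 (R 4.3.3), in each fraction over all its groups and for translation efficiency over both fractions, with Benjamini-Hochberg adjustment over all genes tested. The procedure was tested on simulated data with independent arrays, so that test does not cover any dependence between arrays.

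The study's supplementary datasets served only to find the condition and lysate of each array, by values equal within 0.0001 on the log2 scale. No fold change or p-value of the study was used. Translation efficiency of the combination used the 24 reassigned arrays. Deviations from the group means of same-numbered DMSO and INK128 polysome arrays correlated above 0.1 in all 3 pairs (0.16 to 0.36). Other groups did not correlate above 0.1 in every pair. Over all pairs of polysome arrays from different groups, r ran from -0.70 to 0.44 at the same number and from -0.45 to 0.69 at different numbers. The main fits used no pairing. An alternative fit took the replicate number as a block over all polysome groups, and it changed no call of the 3 genes between DMSO and INK128.

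The members and the gene lists were chosen with earlier results of these data known. Of the list genes, those called in a comparison were named, up to 12 each, and the highest and lowest of a list with no call in the combination against DMSO. The genes most like a member were the 3 with the highest Pearson r over 13 polysome arrays. HUS1 and RAD9A were named after their values were seen. The alternatives covered the 4 arrays in doubt, normalization, centring, the filter, the probeset rule, the arrays in the fit, the replicate number as a block, the coded arrays and each array left out. Centring for the counts of list genes was chosen after seeing the data. Sequences came from RefSeq.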

Additional observations from a re-analysis of the deposited data

How the results depend on the processing

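The changes of the 3 genes moved by less than the SD between arrays in 181 settings and by more in 21, and in 257 and 16 when 1 array was left out. Some of the 181 settings left the compared arrays as they were and could not move the value. A call could also be lost without such a move, so these counts do not measure stability. With centring, the median of all genes in polysome RNA of the combination was 0.04 against DMSO (623 of 1035 calls higher, beside 339 of 976) and 0.05 against carboplatin (795 of 1314, beside 420 of 1323), and CHEK2 was -0.58 and -0.30. Quantile normalization within the fraction gave 496 of 1007 calls higher against DMSO and 566 of 1239 against carboplatin. The mean of both CHEK2 probesets gave -0.46, -0.31 and -0.24 in polysome RNA (combination and INK128 against DMSO, combination against carboplatin) and -0.31 in combination translation efficiency against DMSO. Without the coded arrays TIPIN was 0.76 for carboplatin against DMSO and -1.81 for the combination against carboplatin in polysome RNA, and carboplatin against DMSO had 234 calls (polysome) and 11 calls (total) over all genes, beside 0 in both.

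With all arrays under their labels, combination total RNA differed from DMSO by 0.062 (CHEK2), -0.026 (TIPIN) and -0.31 (RAD17), and from INK128 by 0.32, 1.21 and -0.18 in that order. Combination translation efficiency then differed from DMSO by -0.77, -1.03 and -0.29, and from INK128 by -0.51, -1.37 and -0.27. The genes called over the whole table were 554 for the combination, 301 for INK128 (both against DMSO) and 933 for the combination against carboplatin in polysome RNA, and 0 in total RNA for INK128 and for the combination against DMSO, beside 12 and 31. With reassignment INK128 total RNA had 209, and fitting only the 2 groups gave 44 for the combination and 752 against carboplatin in polysome RNA and 852 for combination total RNA against DMSO.

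The list genes called in polysome RNA were 5 (labels), 1 (only the 2 groups) and 5 (centred) for the combination against DMSO, and 6 (labels), 7 (the methods' unadjusted threshold and size) and 7 (centred) against carboplatin. In total RNA they were 6 (reassigned), 3 (methods' threshold) and 1 (centred) for INK128, and 7 (only the 2 groups) for the combination, and in combination translation efficiency 3 against DMSO and 4 against INK128 (methods' threshold).

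With 1 array left out, the list counts in polysome RNA ran between 3 and 11 for the combination and between 1 and 8 for INK128, and in combination total RNA between 0 and 2. TIPIN ran between -1.66 and -0.81 for INK128 and between 0.10 and 0.95 for the combination against INK128 in total RNA, and in translation efficiency between -0.082 and 0.76 for INK128 and between -1.11 and -0.26 for the combination against INK128. RAD17 combination efficiency ran between -1.12 and -0.53 against DMSO and between -1.10 and -0.51 against INK128. CHEK2 efficiency against DMSO ran between -0.48 and -0.028 for INK128, -0.46 and -0.0048 for carboplatin, and -0.72 and -0.26 for the combination.

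Replicate numbers did not pair the arrays throughout, since 13 of 21 same-numbered polysome pairs and 1 of 6 total pairs correlated above 0.1 (10 of 42 and 3 of 10 among other numbers). With the replicate block, INK128 against DMSO in polysome RNA kept its calls for the 3 genes (CHEK2 -0.52, TIPIN -0.90) and had 7 list genes, beside 6, RAD17 in polysome RNA was -0.60 for the combination against DMSO and -0.75 against carboplatin and was past the threshold in both, the combination against DMSO had 1189 calls over the whole table, beside 976, and RAD17 efficiency with carboplatin was 0.34. The cause of these shifts was not tested.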

Other observations

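In the outlier check of single arrays, 39 sets of 4 to 5 carboplatin arrays were examined, 9 of them for CHEK2, TIPIN and RAD17, and 0 were flagged. Of the 4 arrays in doubt, 2 belonged to carboplatin under the conditions of the datasets. That labelled combination total replicate 1, there a polysome array, gave 7.08 for CHEK2, 8.28 for TIPIN and 8.36 for RAD17, each inside the range of the 4 carboplatin polysome arrays kept. That labelled combination total replicate 2, there a total RNA array of carboplatin, gave 6.88, 9.10 and 9.16 for the same genes in that order, each inside the range of the 3 carboplatin total arrays kept.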
